A study of Mus musculus with 28 samples.

Results

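Fibroblasts grown from the tail tip of 2.5-year mice were compared with those of 1.0-year mice, at 2 libraries per age. The members were the 4 untransduced tail-tip libraries named for these ages, of 28 libraries in all, and the 16447 autosomal genes of the 17295 in the deposited table. The 611 genes on X and the 224 on Y were left out, and 13 mitochondrial genes are given apart. The study converted mouse fibroblasts of embryonic, adult and old animals into induced neural stem cells with factor sets that contained eSox17FNV, an engineered form of the transcription factor Sox17. Both tail-tip groups carry the line label Sox2-GFP and the genotype label no_TF, so they are starting cells that received no reprogramming factor. Skin fibroblasts of 2.5-year mice with the same line and genotype labels, also 2 libraries, are set beside them as a description. The labels give no sex, passage, number of animals or culture for the fibroblasts, so differences between these libraries may be technical in part. The main p-values below set the difference between the ages against a spread within groups that was drawn from all 28 libraries. They describe these libraries and cannot be read as covering variation between animals.

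Dermal fibroblasts build the collagen and elastic matrix of the skin, and they read and send Wnt, transforming growth factor beta (TGF beta), bone morphogenetic protein (BMP) and insulin-like growth factor (IGF) signals. In culture they keep a positional code of Hox genes from the place where they were taken. In aged skin, lower matrix output, cell cycle arrest with a secretory phenotype (senescence) and inflammatory signals are commonly described for these cells.

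Each value is a whole number that the authors normalised in a way not stated, so the sequencing depth behind it is unknown. The 4 libraries summed to 15568954 to 15569791. In each of them the top 10 genes shared 1 value, 92914, a ceiling that hides differences among the most abundant transcripts. All 4 used the same 1317 distinct values, so a value gives a place on a fixed scale. The median absolute gap between the 2 replicates was 0.08 on the log2 scale at 1.0 years and 0.11 at 2.5 years. All 20 genes of the fibroblast identity list had values, but so had the listed markers of most other cell types. The 20 genes summed to 463168 to 527974 in the 4 libraries, and no other marker list summed above 32098. Col1a1, the main collagen of skin, stood at 92914 in all 4 libraries. The label of fibroblast was not tested against libraries of other cells. Hoxb13, a gene of the tail end of the body axis, had values of 1346 and 1378 at 1.0 years and 844 and 686 at 2.5 years, but 1 and 3 in skin. Xist, the RNA that coats the inactive X chromosome, was listed at 0 in both 1.0-year libraries and at 21805 in both 2.5-year libraries. Ddx3y of the Y chromosome had 3953 and 4040 at 1.0 years and 0 at 2.5 years. The 2 ages therefore also differed in sex-linked expression, and age and sex cannot be told apart in any result that follows. Skin had 8894 for Xist and 0 for Ddx3y in both libraries, the sex-linked state of the older tail tip. Where skin was near the older tail tip, shared age and shared sex cannot be told apart either.

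Of 15466 autosomal genes that passed a mean of 10 over all libraries, 1730 differed between the ages, or 11.2%, at a Benjamini-Hochberg adjusted p under 0.05 in limma. Higher values at 2.5 years were called for 885 genes (5.72%) and lower values for 845 (5.46%). At least 2-fold apart were 494 (3.19%). The median log2 difference over all tested genes was 0.01. The fit shared 1 spread estimate over all 14 groups of the study. In 1 of these groups, neural stem cells of 2.5-year mice, the 2 libraries were passages 2 and 5, and the gap between them entered this spread. When the fit was confined to the 6 fibroblast libraries, 3274 genes were called (21.2%), 1739 higher (11.2%) and 1535 lower (9.92%), with 581 at least 2-fold apart (3.76%). The 1250 genes called in both fits with the same sign made up 72.3% of the first set and 38.2% of the second. Counts from the 6-library fit are given below beside those of the main one. Counts of both fits in gene lists are to be read against these shares over all tested genes. With the filter on low values also set over those 6 libraries, a choice made after seeing the data, 3750 of 14566 genes were called (25.7%), 1980 higher (13.6%) and 1770 lower (12.2%), with 630 at least 2-fold apart (4.33%). Leaving out a library lowered the counts by over 1.5 times in 3 of 4 cases. They were 385 higher and 428 lower without replicate 2 at 2.5 years, 473 and 432 without replicate 1 at 1.0 years, and 450 and 426 without replicate 2 at 1.0 years. For 9602 genes (62.1%) the libraries of the 2 ages did not overlap.

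**Figure D1:**
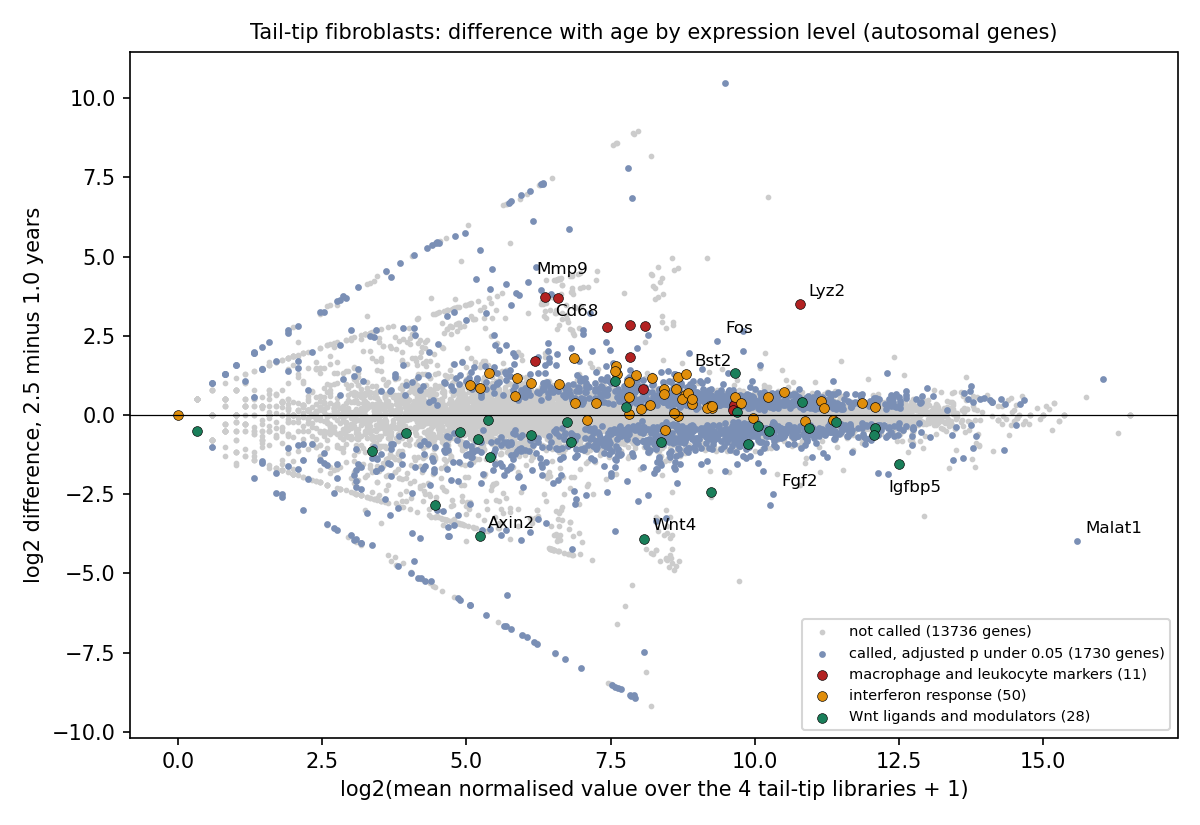
Difference between the ages for each tested autosomal gene. The horizontal axis is log2 of the mean normalised value over the 4 tail-tip libraries plus 1, the vertical axis the log2 difference of 2.5 minus 1.0 years, with genes past the threshold in blue and 3 gene lists in colour. Macrophage markers lie above 0, most Wnt genes lie below it, and Malat1 lies at the right with -3.98.

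Of all lists counted, markers of macrophages and other leukocytes had the highest median difference. Of 20 such markers 18 were in the table, and 11 passed the filter on low values. Of these, 6 rose and 0 fell, with a median log2 difference of 2.79. In the 6-library fit 9 of the 11 were called higher, and 16 of all 18 when the filter was set over those 6 libraries. A filter on the mean can admit genes of low value through the 2.5-year libraries where they are high. These counts and the median may be raised by it. All 6 markers that rose were called whichever tail-tip library was left out. Cd68, a lysosomal glycoprotein of macrophages (ENSMUSG00000018774, GRCm38 chromosome 11, 69664213 to 69666153, minus strand), had values of 11 and 10 at 1.0 years and 153 and 150 at 2.5 years. Its log2 difference was 3.73 ± 0.41 (SE), with limma adjusted p = 2.42e-05. Both older libraries lay more than 10 times above the younger ones, and skin lay between them at 32 and 30.

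Adgre1, which encodes the mouse macrophage antigen F4/80, had 49 and 62 at 1.0 years against 404 and 401 at 2.5 years (log2 difference 2.85 ± 0.59, limma adjusted p = 0.00529). Csf1r, the receptor that macrophages need for survival, went from 43 and 42 to 303 and 298 (2.79 ± 0.59, limma adjusted p = 0.00631). The lysosomal protease gene Ctss had 62 and 72 against 481 and 476 (2.82 ± 0.24, limma adjusted p = 1.62e-06). In each of these genes the libraries of 1 age agreed closely and skin of the same labelled age stayed near the younger tail tip, with 70 and 80 for Adgre1. The lysosomal membrane gene Laptm5 (log2 difference 3.69) and Mpeg1, a pore-forming protein of phagocytes (1.83), completed the called set.

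Lyz2, the lysozyme of myeloid cells, had 250 and 322 at 1.0 years and 3024 and 3442 at 2.5 years. Its log2 difference of 3.50 ± 1.62 missed the threshold (limma adjusted p = 0.199) where the spread was shared with all groups, and passed it in the 6-library fit (adjusted p = 0.00259). The complement genes C1qa (3 and 3 against 72 and 45) and C1qb (4 and 3 against 52 and 56), and the integrin gene Itgam (9 and 11 against 80 and 72), were too low over the whole table to enter the test. All 3 were low at 1.0 years and did not overlap between ages, which was also so for 62.1% of tested genes. The macrophage mannose receptor gene Mrc1 had 724 and 690 against 941 and 843, and Cd53 766 and 730 against 846 and 812, and neither was called in either fit. The summed level of the 18 markers was 2289 and 2297 at 1.0 years and 7537 and 7685 at 2.5 years. Of this Lyz2, not called in the main fit, gave 250 and 322 against 3024 and 3442. Skin summed to 10259 and 10879, of which Cd53 gave 7994 and 8418. In bulk RNA a larger number of cells of a type and more RNA per cell cannot be told apart.

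**Figure D2:**
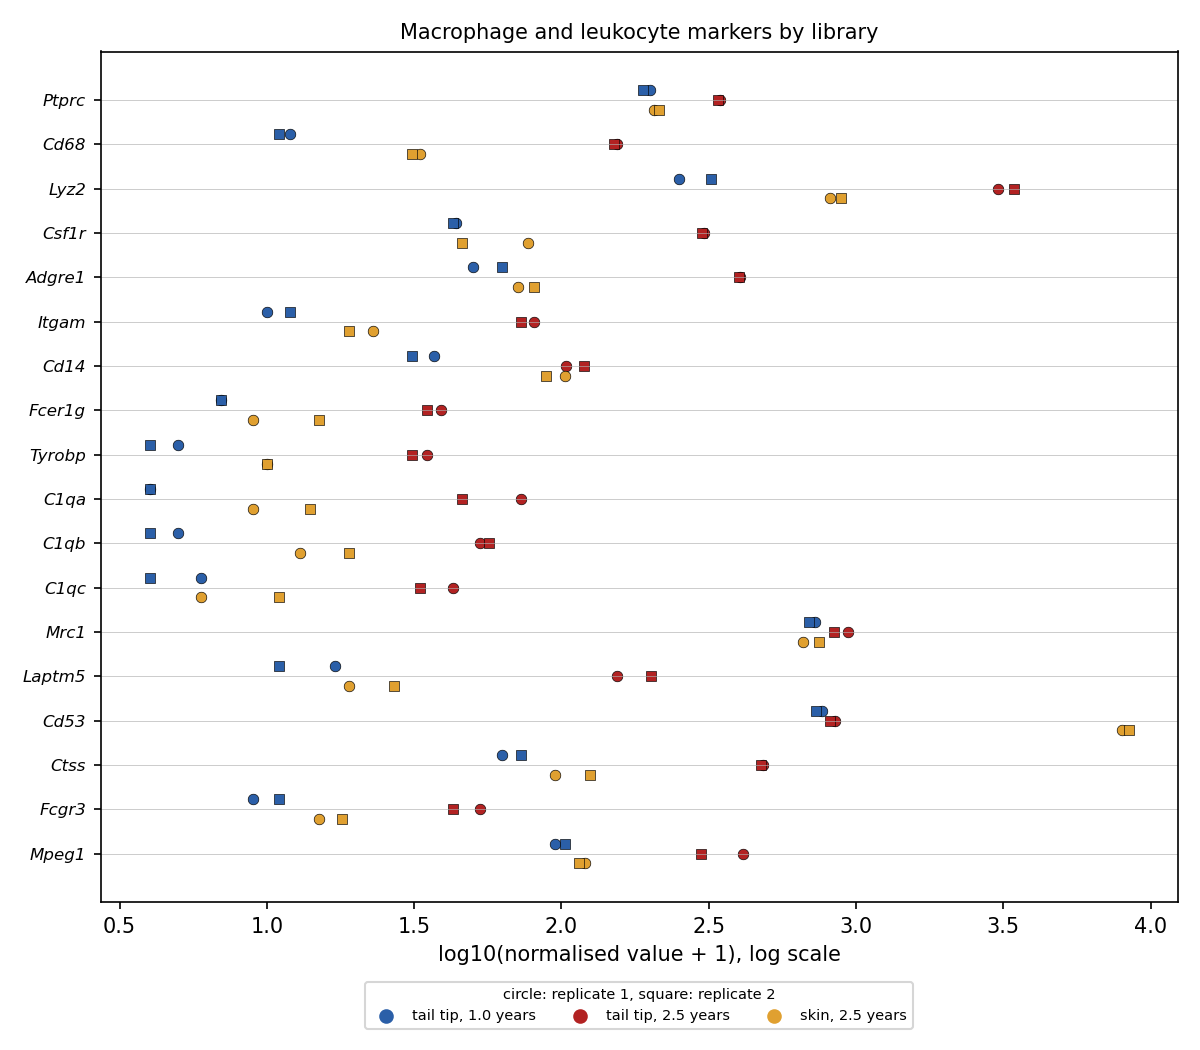
Normalised values of the 18 macrophage and leukocyte markers in each library, as log10 of the value plus 1. Blue is tail tip at 1.0 years, red tail tip at 2.5 years and orange skin at 2.5 years. The red points lie to the right of the blue points in every row, from a small gap in Cd53 and Mrc1 to a gap of more than 1 unit in Cd68 and C1qa.

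Other myeloid genes stood among the largest rises. Mmp9, a gelatin-cleaving protease made by macrophages and other cells, had values of 7 and 5 at 1.0 years and 138 and 114 at 2.5 years (log2 difference 4.19 ± 0.57, limma adjusted p = 2.11e-04). Clec4e, a macrophage receptor for microbial glycolipids, was listed at 0 in both younger libraries and at 132 and 138 in the older ones. The lectin gene Clec4a3 (144 and 166) and the signal-regulatory gene Sirpb1c (174 and 142) were also listed at 0 at 1.0 years. Both were listed at 0 in skin. Il1rn, the interleukin-1 receptor antagonist, had 182 and 171 against 402 and 436 (1.24 ± 0.22, limma adjusted p = 0.00199). Among 31 chemokine and cytokine genes it was the 1 that rose, while 3 fell: Ccl8, a monocyte attractant, Csf1, the ligand of Csf1r, and Il33. Together these calls were close to the 11.2% over all tested genes. Csf1 had 17981 in both younger libraries and 10890 and 11648 in the older ones (-0.67 ± 0.21, limma adjusted p = 0.0499), a call that was lost whichever library was left out. In the 6-library fit 5 genes of this list were called higher and 7 lower.

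Wnt ligands and modulators were mostly lower at 2.5 years. Of 28 tested, 8 fell and 1 rose, with a median log2 difference of -0.55. The 6-library fit called 13 lower and 3 higher. Wnt4, a secreted ligand (ENSMUSG00000036856, GRCm38 chromosome 4, 137277489 to 137299726, plus strand), had values of 491 and 524 at 1.0 years and 32 and 34 at 2.5 years. The log2 difference was -3.90 ± 0.45, with limma adjusted p = 3.94e-05. Skin, at 44 and 44, was near the older tail tip.

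Axin2, a feedback inhibitor that is a widely used target of canonical Wnt signalling, had 80 and 58 against 3 and 5 (-3.82 ± 0.30, limma adjusted p = 5.26e-07). Nkd2, another feedback inhibitor, had 1035 and 996 against 166 and 214 (-2.42 ± 0.47, limma adjusted p = 0.00347). The stem cell receptor gene Lgr5 had 1140 and 1326 against 618 and 704. In all 3 the ages were well apart, and skin was lower still for Nkd2 and Lgr5. The receptor gene Fzd1 (log2 difference -0.62) and the secreted antagonist gene Frzb (-0.86) fell by less. Nkd1 and the antagonist gene Sfrp4 fell as well, from low values. Sfrp2, a secreted modulator of Wnt, was the exception, with 476 and 447 at 1.0 years and 1087 and 1224 at 2.5 years (1.32 ± 0.26, limma adjusted p = 0.00401). Its value in skin was higher again, 5740 in both libraries. Whichever library was left out, Wnt4, Axin2, Nkd2, Lgr5 and Sfrp2 were called, and 5 or 6 genes of the list were called lower.

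In the TGF beta and BMP list 10 of 40 tested genes fell and 0 rose, with a median log2 difference of -0.46. The 6-library fit called 19 lower and 1 higher. Bmp4, a ligand of the BMP branch, had 207 and 201 at 1.0 years and 34 and 30 at 2.5 years (-2.64 ± 0.71, limma adjusted p = 0.0252). Inhba, the activin A subunit, had 17981 in both younger libraries and 6859 and 7153 in the older ones (-1.36 ± 0.26, limma adjusted p = 0.0028). Fst, which encodes the activin-binding inhibitor follistatin, had 3000 and 2834 against 1116 and 1212 (-1.33 ± 0.12, limma adjusted p = 2.59e-06). Ligand and inhibitor of the activin branch were thus both lower by a similar log2 amount.

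The ligand genes Bmp6 (log2 difference -1.62), Gdf6 (-1.09) and Gdf11 (-0.78) fell. The receptor genes Tgfbr1 (-0.51) and Bmpr2 (-0.42) and the nuclear repressor gene Skil (-0.40) fell by less. The BMP antagonist gene Grem1 had 8657 and 8417 against 3000 and 2964 and Id1, a common BMP target, had a mean of 1087.5 ± 31.8 against 492 ± 28.3 (SD, n = 2). Neither passed in the main fit (limma adjusted p = 0.583 and 0.0735), and both passed in the 6-library fit (adjusted p = 4.22e-04 and 0.00329). The groups did not overlap in either gene, as in 62.1% of all tested genes. Whichever library was left out, Fst, Inhba and Gdf11 were called, but only 4 or 5 genes of the list were called lower.

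Of 18 tested genes of the IGF system, 3 fell and 0 rose, with a median of -0.52, and 9 were lower in the 6-library fit. Igfbp5, an IGF-binding protein of fibroblasts, had 6986 in both younger libraries and 2178 and 1770 in the older ones (-1.83 ± 0.30, limma adjusted p = 9.48e-04). Igfbp3, the main carrier of IGF in serum, had 2469 and 2336 against 1134 and 1202. Skin differed between these 2 genes, with 3733 and 3820 for Igfbp5 but 65 and 88 for Igfbp3. Fgf2, a growth factor for fibroblasts (ENSMUSG00000037225, GRCm38 chromosome 3, 37348346 to 37410108, plus strand), had 2166 and 2190 against 370 and 398 (-2.50 ± 0.12, limma adjusted p = 5.74e-10). Its 2 older libraries lay well below all others, with skin at 1032 and 1002. Fgf2 and Igfbp5 were called whichever library was left out, and so was Notch3. Notch3, a receptor of pericytes and some fibroblasts, had 401 and 470 against 78 and 54 (-2.72 ± 0.20, limma adjusted p = 3.71e-07).

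**Figure D3:**
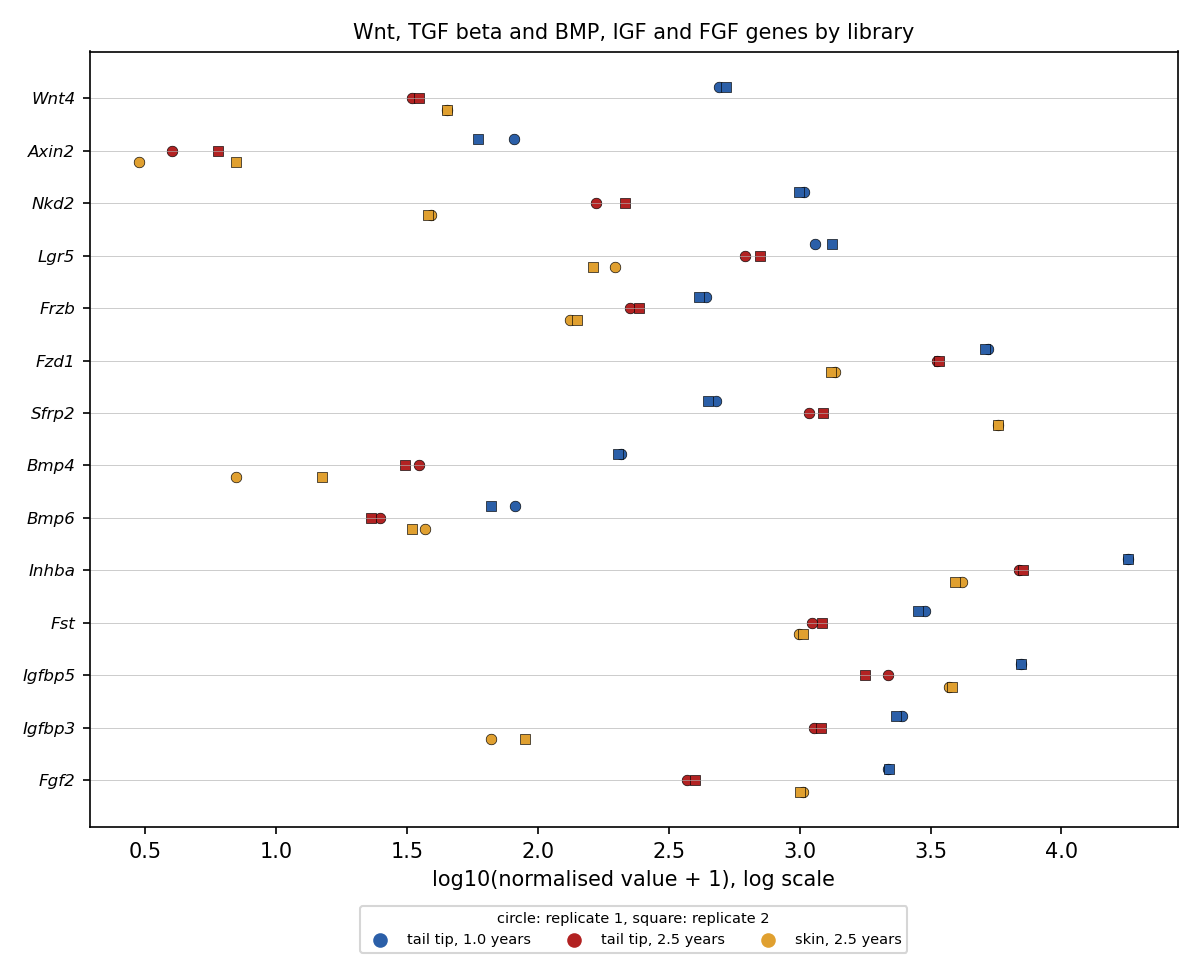
Normalised values of 14 genes of Wnt, TGF beta and BMP, IGF and FGF signalling in each library, as log10 of the value plus 1, with ages and skin coloured as in the plot of macrophage markers. In 13 rows the 2 red points lie to the left of the blue ones, and in the row of Sfrp2 they lie to the right.

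Of the matrix lists, collagen chains had the lowest median. Of 34 collagen chain genes tested, 4 fell and 0 rose (median log2 difference -0.49), and the 6-library fit called 12 lower and 2 higher. The calls of the main fit were near the 11.2% called in either direction over all tested genes, of which 5.46% were called lower. In the 6-library fit 9.92% of all tested genes were lower. The anchoring fibril collagen gene Col7a1 had 457 and 486 at 1.0 years and 184 and 115 at 2.5 years (-1.69 ± 0.38, limma adjusted p = 0.00868). Col28a1 (-1.09), Col16a1 (-0.75) and Col11a1 (-0.67) fell too. With 1 library left out, 2 to 5 chains were called lower, the lowest count being without replicate 2 at 1.0 years. The major fibrillar genes gave the same value in all 4 libraries, 92914 for Col1a1, 42158 for Col1a2 and 32713 for Col3a1. Col1a1 stood at the ceiling, so a difference in it could not be seen. Col1a2 and Col3a1 lay below the ceiling and kept the same place on the fixed scale. A difference smaller than a step of that scale would not show in them.

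Dpt, which encodes the collagen-binding matrix protein dermatopontin, had 2178 and 2150 against 288 and 314 (-2.84 ± 0.83, limma adjusted p = 0.0368). The small proteoglycan genes Dcn (4568 and 4471 against 1362 and 1362) and Lum (1600 and 1600 against 730 and 832) were lower in both older libraries. Both missed the main threshold (limma adjusted p = 0.768 and 0.87) and passed in the 6-library fit (adjusted p = 0.00105 and 0.00626). Of 34 proteoglycan and matricellular genes 5 fell and 0 rose, among them the cell-surface glypican genes Gpc6 and Gpc1, the syndecan gene Sdc2 and the cartilage oligomeric matrix gene Comp (788 and 826 against 416 and 432). Of these 34 genes 13 were lower and 4 higher in the 6-library fit. Of 18 elastic fibre genes 1 rose and 0 fell, close to the shares over all tested genes, with a median of -0.13 and 4 higher and 3 lower in the 6-library fit. The gene that rose was Fbn2, the fibrillin of developing microfibrils, with 420 and 424 against 1052 and 1058 (1.32 ± 0.16, limma adjusted p = 6.99e-05). Of 23 genes of collagen modification and crosslinking only the hydroxylase gene P3h3 was called (-0.47 ± 0.13, limma adjusted p = 0.0285), the median was 0.09, and the 6-library fit called 7 higher and 3 lower. Of 34 matrix proteases and inhibitors 2 rose, Mmp9 and Adamts19, and 5 fell, with Mmp15 going from 76 and 82 to 22 and 24 (-1.74 ± 0.15). Of the proteases and inhibitors 6 were called higher and 12 lower in the 6-library fit. With 1 library left out, 1 to 3 of these and 2 or 3 of the proteoglycan genes were called lower.

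Of 21 genes that mark papillary or reticular dermis 5 fell and 0 rose (median -0.52), and 11 were lower in the 6-library fit. When a library was left out, 2 or 3 were called. Besides Axin2 and Dpt these were the Wnt inhibitor gene Apcdd1, the guidance factor gene Ntn1 (1006 and 1055 against 529 and 507) and the growth inhibitor gene Lrig1 (596 and 542 against 270 and 346). Of 15 smooth muscle and myofibroblast genes 2 fell: Myh11, the smooth muscle myosin heavy chain, from 227 and 230 to 42 and 36 (-2.52 ± 0.61, limma adjusted p = 0.0139), and the integrin gene Itga8, which alone was called whichever library was left out. The calls of the main fit were near the 11.2% over all tested genes. Called in the 6-library fit were 4 lower and 1 higher. In the main fit P4hb, a collagen-modifying enzyme subunit, was the 1 of 20 fibroblast identity genes called, and it rose by 0.41, a call that was lost without any 1 of the libraries. Of the 20, the 6-library fit called 3 higher and 5 lower, and the fit of the 4 tail-tip libraries 2 and 5. The summed level of that list was 525224 and 527974 at 1.0 years and 514315 and 463168 at 2.5 years.

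Immediate early genes, which respond within minutes to growth factors and stress, moved in both directions. Of 28 tested, 4 rose and 2 fell (median log2 difference 0.39), and the 6-library fit called 15 higher and 5 lower. Fos had values of 209 and 220 at 1.0 years, 1013 and 1157 at 2.5 years, and 1643 and 1586 in skin (2.33 ± 0.53, limma adjusted p = 0.01). Myc, a driver of growth, had 544 and 546 against 1510 and 1732 (1.57 ± 0.30, limma adjusted p = 0.00305). Jund and Btg2 rose by 0.44 and 0.45. Both 2.5-year cell types were high for Fos and Myc, and both also shared the same sex-linked state. The orphan nuclear receptor gene Nr4a3 had 133 and 96 against 7 and 6 (-3.93 ± 0.47, limma adjusted p = 5.78e-05), and Nr4a2 250 and 227 against 110 and 120 (-1.05 ± 0.15, limma adjusted p = 3.68e-04). Egr1, on chromosome 18, had 1378 and 1342 against 4305 and 4568, missed the main threshold (limma adjusted p = 0.0696) and passed in the 6-library fit (adjusted p = 5.83e-04). Whichever library was left out, 1 or 2 genes were called higher and 2 lower, and of the 4 that rose Myc was the 1 called each time.

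Genes of the unfolded protein and integrated stress responses, which raise folding capacity of the endoplasmic reticulum, were mainly higher. Of 30 tested, 5 rose and 1 fell (median 0.34), and the 6-library fit called 15 higher and 1 lower. Hspa5, the chaperone BiP, had 16122 and 13042 at 1.0 years and 20138 in both older libraries (0.47 ± 0.14, limma adjusted p = 0.0402). Hsp90b1, the chaperone GRP94, had 42158 in both younger libraries and stood at the ceiling of 92914 in both older ones (1.14 ± 0.34, limma adjusted p = 0.042). That ceiling holds 10 genes in each library, and Malat1 stood there at 1.0 years but not at 2.5 years. The part of this in the step of Hsp90b1 was not tested. Psat1, an enzyme of serine synthesis, rose from 2658 and 2640 to 4077 and 4242. Edem1 and Syvn1, both of the pathway that degrades misfolded proteins, rose by 0.37 and 0.33, and the co-chaperone gene Dnajc3 fell by 0.27. These were small differences, and Edem1 was the 1 of them called whichever library was left out. In those fits 1 or 2 genes of the list were called higher.

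The promoters of these chaperone genes are shown because they hold the endoplasmic reticulum stress element, searched on both strands as CCAAT, then 9 bases of any kind, then CCACG. Windows run from 250 bases before to 50 after the gene start, from RefSeq on GRCm38.p6, 5′ to 3′ on the strand of the gene, and capitals mark each match.
Hspa5 (chr2:34771840-34772139, plus strand): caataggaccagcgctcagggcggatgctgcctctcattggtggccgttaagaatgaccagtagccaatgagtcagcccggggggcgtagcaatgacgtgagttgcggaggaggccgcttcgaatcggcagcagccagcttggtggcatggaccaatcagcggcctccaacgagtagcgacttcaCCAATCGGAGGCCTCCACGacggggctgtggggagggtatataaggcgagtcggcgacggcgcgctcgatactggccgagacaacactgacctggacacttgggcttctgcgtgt
Hsp90b1 (chr10:86705395-86705694, minus strand): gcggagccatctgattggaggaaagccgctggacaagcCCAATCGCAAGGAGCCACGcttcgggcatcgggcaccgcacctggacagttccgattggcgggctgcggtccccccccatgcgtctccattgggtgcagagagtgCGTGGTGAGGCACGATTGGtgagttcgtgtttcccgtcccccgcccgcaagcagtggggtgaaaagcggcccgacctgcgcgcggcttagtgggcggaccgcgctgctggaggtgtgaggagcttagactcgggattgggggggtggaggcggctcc
The letters were found in 39 of 32851 RefSeq promoter windows (0.119%), in 7 of 27 tested genes of the list with a window, and in 3 of the 5 that rose (Hsp90b1, Hspa5 and Syvn1). Hsp90b1 holds 2 matches. A match is a run of letters and not a measured binding site.

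Interferon-response genes leaned upward. Of 50 tested, 8 rose and 0 fell (median log2 difference 0.53), 43 differences were above 0, and the 6-library fit called 27 higher and 1 lower. Bst2, a membrane tether of enveloped viruses, had values of 256 and 264 at 1.0 years and 617 and 650 at 2.5 years (1.28 ± 0.38, limma adjusted p = 0.0413). Gbp3, a guanylate-binding protein, had 132 and 160 against 290 and 318 (1.06 ± 0.26, limma adjusted p = 0.0137). Irf9, a transcription factor of the response, had 268 and 309 against 536 and 477 (0.81 ± 0.17, limma adjusted p = 0.00567). The ages did not overlap in any of these genes, which was also so for 62.1% of all tested genes. Skin was near the younger tail tip for Irf9 and Gbp3 but at 725 and 695 for Bst2.

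The RNA sensor gene Ddx58 (log2 difference 0.74), Parp9 (0.65), Cmpk2 (0.60) and Samd9l (0.45) rose as well. Further members had larger differences with a wide spread over the other groups. Isg15, a ubiquitin-like modifier, had 46 and 52 against 241 and 126 (1.81 ± 0.60, limma adjusted p = 0.0652), and Oasl2 had 100 and 96 against 276 and 300 (1.54 ± 1.00, limma adjusted p = 0.377). Ifit1 had 244 and 248 against 570 and 564. All 3 were called in the 6-library fit (adjusted p = 0.0475, 0.00612 and 5.83e-04). The 1 gene called lower there was Ifit2. Whichever library was left out, Samd9l was called, and 2 to 4 genes of the list were called higher. In the same 2 libraries 6 of the 11 tested macrophage and leukocyte markers rose. The summed level of all 18 in the table was 2289 and 2297 against 7537 and 7685. The part of these markers in the interferon list was not tested. Of the 23 genes of class I antigen presentation only the chaperone gene Pdia3 rose in the main fit, and with a library left out it was called only without replicate 1 at 2.5 years. In the 6-library fit 3 of the 23 were called higher, near the 11.2% higher over all tested genes.

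The promoters of Bst2 and Gbp3 are shown because they hold the interferon-stimulated response element, searched on both strands as GAAA, then 2 bases of any kind, then GAAA. Windows, source, build and orientation are as for the chaperone genes, and capitals mark the matches, which overlap in each of these windows.
Bst2 (chr8:71537423-71537722, minus strand): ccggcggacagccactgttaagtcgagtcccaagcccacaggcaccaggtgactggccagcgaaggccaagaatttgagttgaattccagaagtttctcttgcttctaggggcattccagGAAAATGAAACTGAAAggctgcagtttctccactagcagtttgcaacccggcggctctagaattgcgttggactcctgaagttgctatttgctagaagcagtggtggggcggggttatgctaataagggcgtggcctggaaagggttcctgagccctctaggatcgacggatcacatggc
Gbp3 (chr3:142559794-142560093, plus strand): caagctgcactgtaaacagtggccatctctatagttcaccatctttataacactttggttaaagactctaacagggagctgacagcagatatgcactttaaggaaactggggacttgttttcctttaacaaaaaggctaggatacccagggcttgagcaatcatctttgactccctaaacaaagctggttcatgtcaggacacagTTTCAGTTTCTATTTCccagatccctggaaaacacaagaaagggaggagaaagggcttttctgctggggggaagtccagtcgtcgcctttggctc
The letters were found in 1131 of 32851 promoter windows (3.443%), in 22 of 37 tested list genes with a window, and in 3 of the 6 that rose and had one (Bst2, Ddx58 and Gbp3). Nothing was measured at these sequences.

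Malat1, a long RNA retained in the nucleus (ENSMUSG00000092341, GRCm38 chromosome 19, 5795690 to 5802672, minus strand), stood at the ceiling of 92914 in both 1.0-year libraries and had 6859 and 5028 at 2.5 years. Its log2 difference was -3.98 ± 0.15 (limma adjusted p = 5.53e-11), and since the younger value was capped the scale may understate it. Skin was lower still, at 2445 and 2899. Its genomic neighbour Neat1, the RNA scaffold of paraspeckles, had 7802 and 7994 against 2433 and 1984 (-1.85 ± 0.16, limma adjusted p = 1.5e-06) and was named after its values were seen. The small brain RNA Bc1 went the other way, from 238 and 248 to 1616 and 1444 (2.65 ± 0.17, limma adjusted p = 4.03e-08).

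Calls moved with transcript length. In the longest of 10 equal classes, 6779 nucleotides and above, 46 genes were higher and 146 lower, and the median log2 difference was -0.10. In the third class, 1818 to 2300 nucleotides, 104 were higher and 58 lower, with a median of 0.07. The part of length in the results for single genes was not tested.

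**Figure D4:**
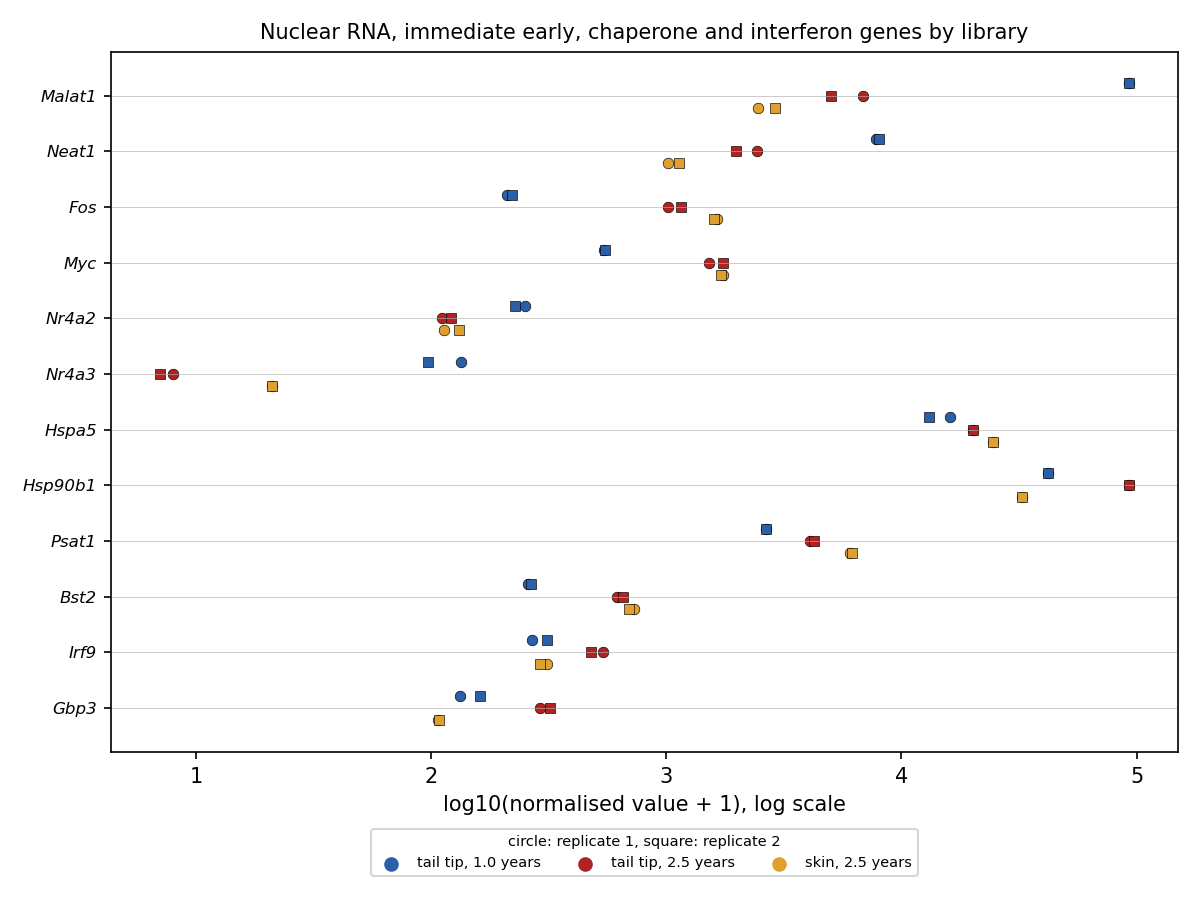
Normalised values of 12 nuclear RNA, immediate early, chaperone and interferon genes in each library, as log10 of the value plus 1, coloured as in the plot of macrophage markers. Malat1, Neat1, Nr4a2 and Nr4a3 have the red points to the left of the blue ones, and the other 8 rows have them to the right. Hsp90b1 at 2.5 years and Malat1 at 1.0 years sit at the ceiling of the scale.

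Senescence genes did not rise in the main fit. Of 38 tested, 0 rose and 7 fell (median -0.29), and the 6-library fit called 1 higher and 16 lower. The cell cycle inhibitor gene Cdkn1a had 5321 and 5539 at 1.0 years and 3952 and 3924 at 2.5 years (-0.46 ± 0.12, limma adjusted p = 0.0188). Cdkn2a, the locus of the inhibitor p16, had 3068 and 3048 against 2488 and 2601 (-0.27 ± 0.17, limma adjusted p = 0.379). Glb1, the lysosomal galactosidase behind the usual senescence stain, had 1116 and 1196 against 808 and 743 (-0.58 ± 0.11, limma adjusted p = 0.00242). Each was lower in both older libraries. Il6, a classic secreted factor, had 704 and 674 against 706 and 730, which was within the spread of replicates. The remaining falls were Fgf2, Igfbp5, Igfbp3, Ccl8 (570 and 678 against 193 and 231) and Csf1. Whichever library was left out, 4 or 5 genes of the list were called lower.

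Of 27 targets of p53, 4 fell and 1 rose, with 10 lower and 3 higher in the 6-library fit. Pmaip1, an initiator of cell death on chromosome 18, had 622 and 659 against 360 and 356 (-0.84 ± 0.07, limma adjusted p = 1.68e-06). Trp53inp1 (log2 difference -0.50), the co-stimulatory gene Cd80 (-1.08) and Cdkn1a fell as well, and Btg2 rose. When a library was left out, 2 of these targets were called lower and 0 higher. Proliferation genes leaned upward without a call. Of 45 DNA replication genes 37 were above 0 (median 0.27) and of 43 mitosis genes 36 (median 0.25), with 0 called in either direction. The 6-library fit called 13 and 17 of them higher and 1 and 0 lower. Ccnb2, a mitotic cyclin, had 418 and 358 against 633 and 632, and skin had 1354 and 1366. Cdt1, a licensing factor of replication, had 80 and 56 against 207 and 220.

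Glycolysis and hypoxia genes were more often above 0 than below. Of 33 tested, 4 rose and 1 fell (median 0.33), with 18 higher and 2 lower in the 6-library fit. Over all tested genes 5.72% were higher in the main fit and 11.2% in the 6-library fit. Egln3, an oxygen sensor of the hypoxia pathway, had 46 and 46 against 92 and 90 (0.97 ± 0.20, limma adjusted p = 0.00609). The related Egln1 (837 and 771 against 1120 and 1290), the aldolase gene Aldoc and the regulator of glycolysis Pfkfb3 rose, and Pfkfb4 fell from 167 and 154 to 90 and 63. The 2 kinases of the same family thus went opposite ways. Of 72 nuclear genes of oxidative phosphorylation 2 rose and 6 fell (median -0.03), together close to the 11.2% over all genes, and the 6-library fit called 11 in each direction. The falls were complex I subunits Ndufa3, Ndufa6, Ndufb3 and Ndufb4, the complex II subunit Sdha and the complex IV subunit Cox8a, and the rises Atp5g2 and Ndufs7. With 1 library left out, 0 to 2 of these were called in each direction, and 1 or 2 glycolysis and hypoxia genes were called higher. Of the 13 mitochondrial genes mt-Atp6 rose from 20143 to 28063 (both values shared by the 2 replicates) and mt-Nd4l fell from 5539 in both to 2567 and 2348.

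In the list for oxidative stress and the regulator Nrf2, 5 of 35 genes fell and 1 rose, with 14 lower and 1 higher in the 6-library fit. When a library was left out, 2 were called lower. Gclc, the limiting enzyme of glutathione synthesis, had 958 and 886 at 1.0 years and 423 and 455 at 2.5 years (-1.07 ± 0.13, limma adjusted p = 9.08e-05). The heme oxygenase gene Hmox1 had 5088 in both younger libraries and 3110 and 3000 in the older ones (-0.74 ± 0.22, limma adjusted p = 0.0444). Gsr, which regenerates glutathione, rose by 0.52, and that call was lost whichever library was left out. Of 31 cholesterol synthesis and lipid genes only the desaturase gene Scd2 rose in the main fit, from 9706 and 9430 to 17981 in both (0.91 ± 0.06, limma adjusted p = 9e-08), and the 6-library fit called 8 higher and 6 lower. Of 16 complement genes that passed the filter, C1s1 alone was called, from 1055 and 1021 to 475 and 481 (-1.12 ± 0.23, limma adjusted p = 0.00559), and the 6-library fit called 9 lower and 2 higher. The higher ones were C3, the central component, and the receptor gene C3ar1 (log2 differences 0.43 and 1.25). C1qa and C1qb, described with the macrophage markers, did not pass the filter.

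Of 31 Hox genes, which encode position along the body, 1 rose and 2 fell, a share near the 11.2% of all tested genes. Hoxc12, of the posterior groups, had 609 and 564 at 1.0 years and 288 and 212 at 2.5 years (-1.24 ± 0.27, limma adjusted p = 0.00785), while skin had 1 and 2. Its neighbour Hoxc13 had 535 and 521 against 607 and 672 and was not called (limma adjusted p = 0.741). Hoxb3 fell from 79 and 54 to 36 and 35, and Hoxb8 rose from 36 and 42 to 70 and 78. The 6-library fit called 1 Hox gene higher and 0 lower, and without replicate 2 at 2.5 years 0 were called in the main fit. Among 49 mesenchymal transcription factors, 3 rose (Tbx15, Foxc1 and Tbx18) and 3 fell (Foxf1, Nfib and, at very low values, Barx1). Together these calls were close to the 11.2% of all tested genes. The 6-library fit called 12 of the 49 higher and 5 lower. Tbx15, a patterning factor of the skin, had 614 and 535 against 977 and 1010 (0.79 ± 0.21, limma adjusted p = 0.0215). Foxf1 had 164 and 148 against 38 and 45 (-1.89 ± 0.52, limma adjusted p = 0.0281). With 1 library left out, 0 or 1 of these factors were called higher and 1 or 2 lower. Of 36 imprinted genes 4 fell and 1 rose, the G protein gene Gnas, from 10338 and 9950 to 16122 and 17981 (0.75 ± 0.08, limma adjusted p = 3.15e-05), and Gnas was called whichever library was left out. The calls of imprinted genes in the main fit were near the 11.2% over all tested genes. Of the imprinted genes 5 were higher and 7 lower in the 6-library fit.

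**Figure D5:**
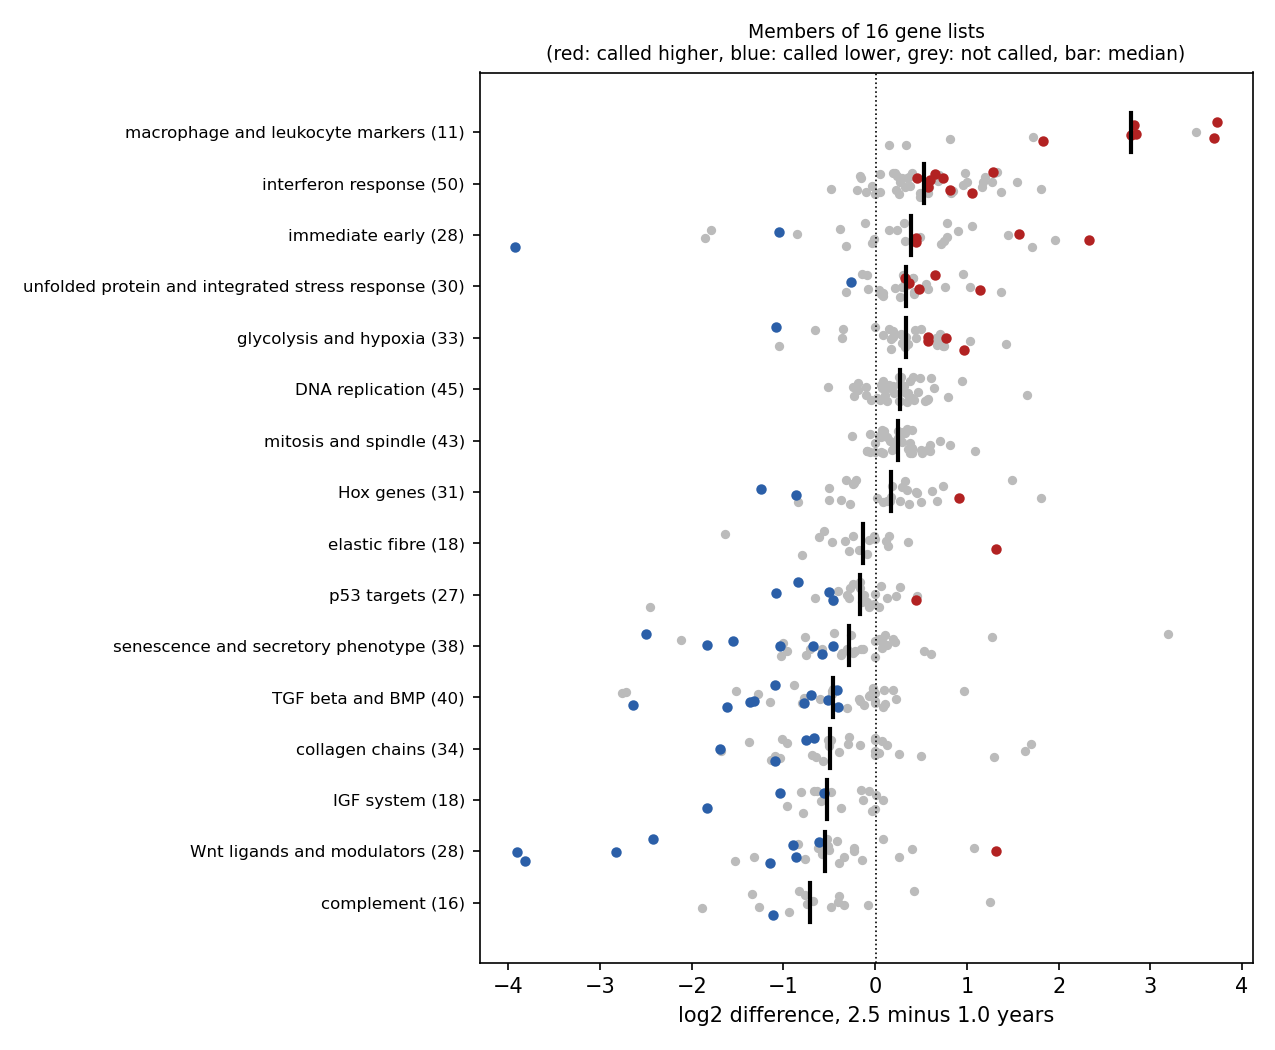
Log2 difference of 2.5 minus 1.0 years for the tested members of 16 gene lists, 1 point per gene, with the number tested in brackets and a black bar at the list median. Macrophage markers have the highest median (2.79), complement the lowest (-0.71), and the dotted line marks the median of all tested genes.

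Large single falls and rises took in genes of other tissues. The epithelial desmosome gene Dsp had 568 and 572 at 1.0 years against 60 and 50 at 2.5 years (-3.36 ± 0.48, limma adjusted p = 3.16e-04). Cyp2f2 (162 and 142 against 12 and 15), the secreted protein gene Ccdc3 (334 and 372 against 21 and 35), Wfdc1 (128 and 144 against 12 and 14) and the matrix gene Fndc1 (624 and 644 against 56 and 77) fell in the same range. Of 20 keratinocyte markers 8 were in the table, and Dsp was the 1 of 7 tested that was called, with 2 lower in the 6-library fit. The summed level of the 8 was 864 and 867 at 1.0 years and 216 and 254 at 2.5 years, of which Dsp gave 568 and 572 at 1.0 years and 60 and 50 at 2.5 years. The part of keratinocytes in the fall of Dsp was not tested.

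Among the rises, Tcta had 30 and 23 against 254 and 253 (3.22 ± 0.34, limma adjusted p = 1.72e-05). The vomeronasal receptor gene Vmn2r11 (3 and 3 against 530 and 400), the retinal gene Pdc (1 and 1 against 134 and 145) and the olfactory receptor pseudogene Olfr1191-ps1 (1 and 1 against 396 and 492) rose too. Receptor genes of these families have near-identical copies, so their values are uncertain. The histone gene Hist1h4n (140 and 112 against 11 and 7) is likewise 1 of many copies. The rises of Ms4a14, Rnf152 and Cd180 and the fall of Pcdh17 rest on groups in which 1 replicate was far from the other, and none of these 4 was called in the 6-library fit.

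Markers of other cell types were called in both directions. Endothelial markers summed to 1819 and 1888 at 1.0 years and 1178 and 1224 at 2.5 years, and of 9 tested only Plvap, at values of 9 and 9 against 3 and 2, was called lower, and that call was lost without any 1 of the libraries. In the 6-library fit 3 endothelial markers were lower. Of 6 tested pericyte markers Notch3 and Mcam fell, and both were called in the 6-library fit. Of 5 tested Schwann cell and melanocyte markers Mitf, the main transcription factor of melanocytes, fell from 557 and 560 to 316 and 363 (-0.72 ± 0.21, limma adjusted p = 0.0342), and the 6-library fit called 1 higher and 1 lower. The neural crest and Schwann cell genes Sox10, Cdh19 and Ngfr were listed at 0 in all 4 tail-tip libraries. So were the melanocyte gene Tyr and the muscle genes Pax7 and Actc1. Of 12 cartilage and bone markers Sox9 and Alpl, a phosphatase of mineralising cells, rose and Col11a1, Comp and Dmp1 fell, of which Col11a1 alone was called whichever library was left out. Called in the 6-library fit were 2 higher and 5 lower. Col11a1 was also the 1 of 9 tendon markers called, with 3 higher and 2 lower in the 6-library fit. Thbs4, a tendon matrix gene, had 7992 and 7798 against 17981 in both older libraries, missed the main threshold (limma adjusted p = 0.108) and passed in the 6-library fit (adjusted p = 2.66e-04). Of 7 adipocyte markers the fatty acid transporter gene Cd36 rose, from 576 and 377 to 946 and 902 (0.99 ± 0.19, limma adjusted p = 0.00327). That call was lost in the 6-library fit (adjusted p = 0.059) and without replicate 2 at 1.0 years.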

How the data were processed

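Libraries were made from poly(A) RNA captured on oligo(dT) beads, per the labels' protocols. The deposited table holds 1 score per gene and library, whole numbers that the authors call normalised expression values. RSEM, Bowtie2 2.0 and mm10 are named in the submitters' processing notes, with no role or order, and the normalisation is not given in the sources used here. Chromosomes and coordinates came from GENCODE M21 on GRCm38, in which all 17295 identifiers were found.

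Values were analysed as log2(value + 1), which understates changes of genes with low values. A gene was tested where its mean over the 28 libraries reached 10 (16275 genes, of which 15466 autosomal), with limma 3.58.1 in R 4.3.3. The model had 1 term per group and a trend of variance on mean. The contrast was two-sided, and p-values were adjusted by Benjamini and Hochberg over all 16275 genes with a threshold of 0.05. Python 3.11.15, numpy 2.4.6, pandas 2.3.3 and matplotlib 3.10.9 served tables and figures, and statmod 1.5.0 the fit with a robust variance prior. In the blocked fits the replicate number was a fixed term of the model.

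The comparison, the gene lists and the rule for genes were chosen with earlier results of these data known. Named by rule were the 15 largest rises and falls among called genes whose libraries did not overlap and whose mean reached 100 at 1 of the ages, without predicted genes. Genes listed at 0 on 1 side were taken apart, the 10 with the highest mean on the other side. From each list up to 8 members with the smallest adjusted p were named, and every member of short lists, of the Hox list and of the marker lists. Other list members were named for their values in the 6-library fit or in the samples, after those were seen. A few genes that the rule names are not reported here.

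The labels share replicate numbers between ages, but the gaps between replicates 1 and 2 correlated by 0.00026 across genes, so the numbers were not taken to pair libraries. In a simulation with 50 genes changed by each fold, 28, 68, 84 and 94% were recovered at 1.5, 2, 4 and 8-fold, and 6.8% of 147 calls were false. Only genes above a set level at 1.0 years were changed. Each gene had the same spread in every group, and the fixed scale with its ceiling was not imitated. The shares therefore do not cover genes of low value or groups of unlike spread.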

Additional observations from a re-analysis of the deposited data

How the results depend on the processing

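For the named genes over 18 settings, 3175 results kept their side of the threshold, 599 lost the call, 54 gained it and 0 reversed. Most settings reuse the same 4 tail-tip values, and genes named by rank were chosen without overlap between the ages. A reversal was therefore hardly possible, and its absence says nothing on how firm a call is. With other pseudocounts, filters, variance priors, adjustment over autosomal genes, median centring or without genes at the ceiling, the counts of higher and lower genes stayed within 1.5 times. The exception was the number at least 2-fold apart, 263 of 11206 genes when the mean had to reach 100. The fit of the 6 fibroblast libraries called 1739 higher and 1535 lower, and with its filter set over those libraries 1980 and 1770. The second was chosen after seeing the data. With 1 library left out, 385 to 611 genes were higher, 426 to 590 lower, and 392 to 483 at least 2-fold apart. The remaining lone library is then assumed to vary like the other groups. With the replicate block in the 4 tail-tip libraries 1 degree of freedom remained and 0 genes were called in either direction or at least 2-fold, with 4356 at an unadjusted p under 0.05. With the replicate block over the 26 numbered libraries 1552 were higher and 1314 lower. Fits on part of the libraries also hold fewer of them, and the causes of these shifts were not tested.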

Other observations

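Genes listed at 0 in both libraries of 1 age formed a group of their own among the calls, 42 at 0 at 1.0 years and 46 at 0 at 2.5 years. Ncam2, a neural cell adhesion gene, had 418 and 488 at 1.0 years, Vip, the vasoactive intestinal peptide, 334 and 429, and Myct1 195 and 222, and all 3 were listed at 0 at 2.5 years. Skin was at 0 for Ncam2 and Myct1 and at 392 and 416 for Vip. Tnfsf18, a cytokine of the tumour necrosis factor family, had 430 and 496 against 0, with 458 and 543 in skin. Replicates of 1 group could also part in this way. Among tested genes, 155 in the 1.0-year group, 139 in the 2.5-year group and 190 in skin had 1 library at 0 and the other at 50 or more. Hist2h2aa1, at 0 and 0 against 7 and 426, is an example within the called set. With such steps inside a group, the calls that rest on values of 0 are described here as values.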
